A study of Homo sapiens with 2 samples.

Results

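The genes described here encode 10 components of the interleukin 6 cytokine family and the STAT3 pathway. They are the ligands IL6, IL11, LIF and CLCF1, the receptor chains IL6R, IL6ST, LIFR and OSMR, the transcription factor STAT3 and its feedback inhibitor SOCS3. They were chosen by gene name, and all 10 were present among the 58735 genes of the deposited expression table. The study measured RNA in U87MG, an established cell line from a human glioblastoma, kept for a week under conditions for stem cells, so that it formed glioma spheres. One group carried the pGIPZ-CTRL control lentivirus and the other a lentivirus with an shRNA against TRIP13, an AAA+ ATPase of the spindle checkpoint, and both were selected with puromycin. The first is called the shcon library and the second the library labelled shTRIP13, after their labels. The labels call the selected cells stable clones and do not give the number of clones.

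Each group held 1 library, so no value below has a replicate error and there is no test and no p-value. Differences describe these libraries rather than the conditions. TRIP13 itself stood at 23.1 FPKM in the library labelled shTRIP13 and at 11.9 in the shcon library, a ratio of 1.95 (95% counting interval 1.79 to 2.12). That goes against the label, so every direction below is a direction between libraries as labelled. FPKM relates the fragments of a gene to its exon length and to a library total. The values of both libraries resolved into whole reads, 19903836 in the library labelled shTRIP13 and 18871063 in the shcon library. Both had been divided by the same total, so FPKM ratios carry the depth ratio of 1.05 and are not corrected for it.

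Cytokines of the interleukin 6 family signal through IL6ST, the shared receptor chain also called gp130, which pairs with a chain that gives specificity. IL6 and IL11 bind their own alpha chains, LIF binds LIFR, oncostatin M binds OSMR or LIFR, and CLCF1 acts through the ciliary neurotrophic factor receptor together with LIFR. The receptors activate JAK kinases, which phosphorylate STAT3, and STAT3 induces SOCS3, which shuts the receptor down. In glioblastoma this pathway is known for its links to the mesenchymal state, to self-renewal of stem-like cells and to exchange with microglia.

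Genes were compared by the log2 ratio, log2((FPKM + 1) in the library labelled shTRIP13 / (FPKM + 1) in the shcon library), and a difference was counted when that ratio reached 1 or -1. All 10 genes passed the filter of a mean FPKM of 1 or more. At this threshold 3 of the 10 were lower, IL6, LIF and IL11, where 4.19% of the 10671 protein-coding genes past the filter were lower. None of the 10 reached the threshold upwards, where 2.17% of all tested genes did. In either direction it was 3 of the 10 and 6.36% of all tested genes. The median log2 ratio of the 10 genes was -0.64, and that of all tested genes was 0.12. In direction, 7 of the 10 lay below 0 and 3 above, while 39.6% of all tested genes lay below 0.

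**Figure D1:**
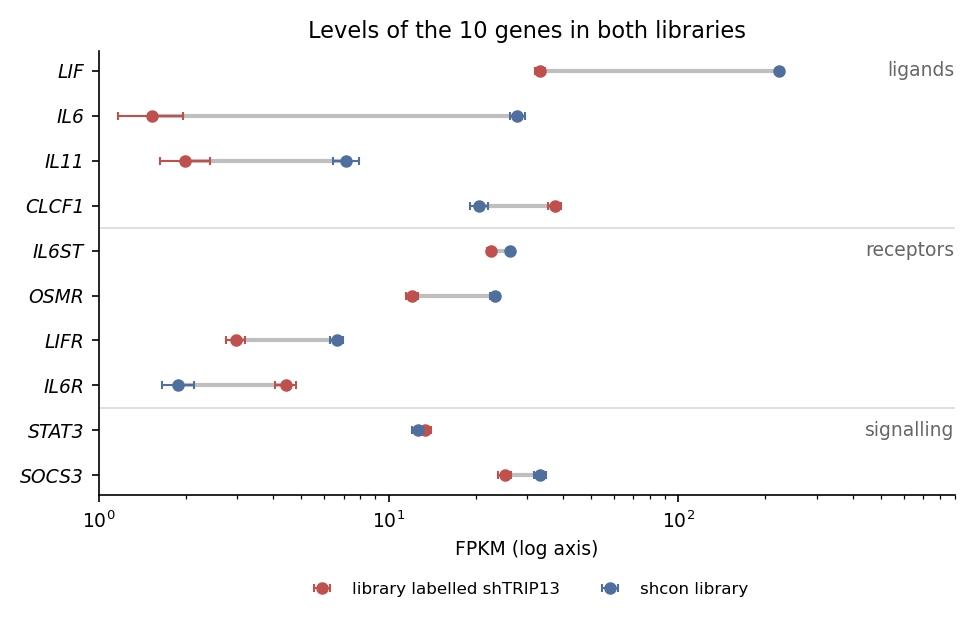
FPKM on a log axis for the 10 genes in the library labelled shTRIP13 (red) and the shcon library (blue), 1 library each, with bars for the 95% exact Poisson interval of the recovered reads (counting error only). LIF, IL6 and IL11 show the widest gaps, while STAT3 stood at 13.4 and 12.6 FPKM.

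Among the ligands, LIF, a cytokine that supports self-renewal of stem cells, was the most abundant in the shcon library. LIF (ENSG00000128342, hg38 chromosome 22, 30240447 to 30246851, minus strand) stood at 222 FPKM in the shcon library and 33.4 in the library labelled shTRIP13, from 17081 and 2567 reads. It was 6.65-fold lower (6.38 to 6.94) with a log2 ratio of -2.70, and 37 of the 10671 tested genes had a lower one. In absolute terms its difference of -189 FPKM was the largest of the 10 genes. By level, LIF ranked 104 among the tested genes of the shcon library and 1340 in the other. Of its exon length, 6.73% is shared with antisense genes, of which AC004264.1 had 45 against 176 reads and LIF-AS1 3 against 14.

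IL6 encodes the founding cytokine of the family, which acts in acute inflammation. IL6 (ENSG00000136244, chromosome 7, 22725884 to 22732002, plus strand) stood at 27.8 FPKM in the shcon library and 1.52 in the library labelled shTRIP13, from 1115 and 61 reads. It was 18.3-fold lower (14.1 to 24.1), with a log2 ratio of -3.51 and 7 tested genes below it. Its rank by level was 1453 in the shcon library and 9823 in the other. An antisense gene, AC073072.1, covers 20.7% of the exon length of IL6 but had 14 and 2 reads in all, so few reads were assigned to it next to the 1115 of IL6. The STEAP1B gene covers 46 bases of IL6 exon on the opposite strand and had 412 reads in the shcon library and 252 in the other, a ratio of 0.612 (0.521 to 0.717).

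IL11, a cytokine of stromal and fibrotic responses, was the weakest of the ligands in the shcon library. IL11 (ENSG00000095752, chromosome 19, 55364389 to 55370463, minus strand) stood at 7.13 FPKM there and 1.99 in the library labelled shTRIP13, from 369 and 103 reads. It was 3.58-fold lower (2.87 to 4.502), with a log2 ratio of -1.44 that became -0.80 with a pseudocount of 5. None of its exons overlap another gene.

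CLCF1, a neurotrophic ligand, went the other way. CLCF1 (ENSG00000175505, chromosome 11, 67364168 to 67374177, minus strand) stood at 37.5 FPKM in the library labelled shTRIP13 and 20.6 in the shcon library, from 1437 and 787 reads. This gave an FPKM ratio of 1.83 (1.67 to 1.99) and a log2 ratio of 0.84, short of the threshold of 1. Of the tested genes, 95.5% had a lower log2 ratio. RAD9A, a checkpoint gene whose span on the opposite strand holds CLCF1 without sharing exon bases, had 11.6 against 5.92 FPKM, a ratio of 1.97 (1.76 to 2.20).

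The ligand genes together made up 278 FPKM in the shcon library and 74.4 in the library labelled shTRIP13, a sum 3.73-fold lower. Their makeup differed as well. LIF gave 80.0% of the sum in the shcon library and 44.8% in the other, while CLCF1 gave 7.41% and 50.4%. IL6 gave 10.02% and 2.04%, and IL11 2.57% and 2.67%. CLCF1 was thus the most abundant ligand mRNA per length in the library labelled shTRIP13, with a counting interval of 35.6 to 39.5 FPKM above the 32.1 to 34.7 of LIF.

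**Figure D2:**
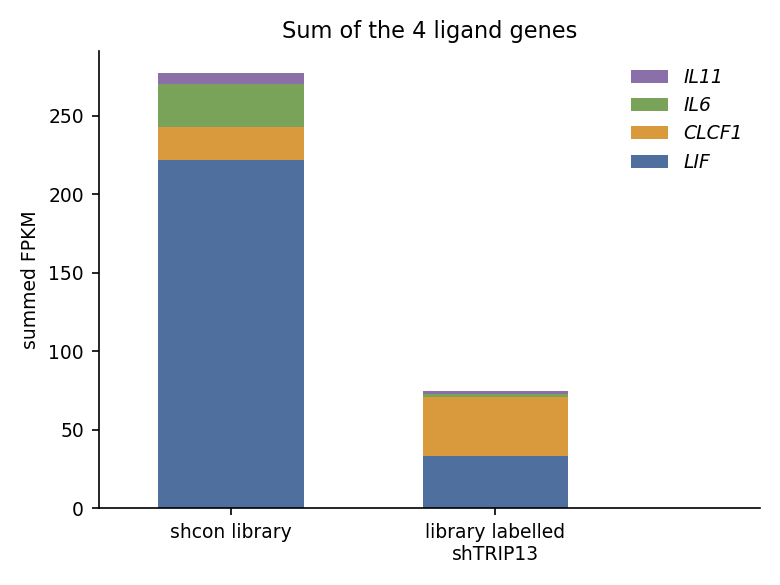
Summed FPKM of LIF, CLCF1, IL6 and IL11 in the shcon library and the library labelled shTRIP13, stacked by gene, 1 library each with no error. The sum was 278 against 74.4 FPKM, and the largest part was LIF in the shcon library and CLCF1 in the other.

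Promoter sequence was examined next. RefSeq windows (GRCh38.p14) were found for 8 of the 10 genes, 11 windows in all, while those of LIF and CLCF1 were not analysed here, and the 250 bases before each start were searched on both strands for 4 motifs. These were TTCNNNGAA for STAT factors, GGGNN followed directly by TTNCC for NF-kB, TGANTCA for AP-1 and TTGCNNAA for C/EBP factors. Of 34943 windows of the same length, 6.56% held the STAT motif, 5.05% the NF-kB motif, 6.59% the AP-1 motif and 9.06% the C/EBP motif. At least 1 of the 4 was held by 24.2% of these windows and by 5 of the 11 windows here, 2 of which belong to LIFR. The 3 stretches below are examples from genes that were lower, LIFR short of the threshold. OSMR was also lower and held a match, but its stretch is not shown. Matches are in capitals, written 5′ to 3′ on the strand of the gene. In IL6 (chr7:22727025-22727146, plus strand) the C/EBP match begins 155 bases and the NF-kB match 73 bases before the start. In IL11 (chr19:55370533-55370579, minus strand) the AP-1 match begins 96 bases before the start, and in LIFR (chr5:38595542-38595590, minus strand, the first of 3 listed starts) the STAT match begins 165 bases before it.
IL6: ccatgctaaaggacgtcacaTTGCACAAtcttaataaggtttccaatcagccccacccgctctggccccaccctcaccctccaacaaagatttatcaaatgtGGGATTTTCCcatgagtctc
IL11: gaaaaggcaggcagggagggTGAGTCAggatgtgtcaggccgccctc
LIFR: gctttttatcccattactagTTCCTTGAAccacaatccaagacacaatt
A match is a description of letters, and a window without one says only that these letters are not in it. The remaining matches were a C/EBP match in OSMR and, at another listed start of LIFR, a STAT and a C/EBP match. The windows of IL6R, IL6ST, STAT3 and SOCS3 and of the last of the 3 listed starts of LIFR held none of the 4 motifs. For SOCS3 the windows lie at 78360926 to 78361175 and 78359668 to 78359917. Neither covers the bases just before its GENCODE 29 start at 78360077, so those bases were not searched.

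The mRNAs of all 4 ligands carry AU-rich heptamers, TATTTAT, in the 3′ UTR, a sequence known to be bound by decay factors such as ZFP36. In 1 transcript a gene from GENCODE 29, read on the transcript strand with overlapping matches counted, IL11 had 7 heptamers, LIF 5, CLCF1 4 and IL6 3. IL6 packed its 3 into 429 bases, 6.99 per kb, against 4.33 per kb in IL11, 4.13 in CLCF1 and 1.56 in LIF. OSMR had 3, SOCS3 2, IL6ST and LIFR 1 each, and IL6R and STAT3 none. Of 10568 tested genes with a 3′ UTR, 33.4% had at least 1 heptamer and 6.14% had 3 or more. The densest 30 bases of each ligand are shown, with heptamers in capitals and T for U, because they are shared by the 3 ligands that were lower and by CLCF1, which was not. They lie at chr7:22731919-22731948 (plus strand), chr19:55365950-55365979, chr22:30242566-30242595 and chr11:67364230-67364259 (minus strand) of hg38.
IL6: tttttaaagaaaTATTTATattgTATTTAT
IL11: tccaaagccagatctTATTTATTTATTTAT
LIF: gatttcTATTTATtatgatatccTATTTAT
CLCF1: aaTATTTATTTATttggagatgtTATTTAT
The heptamer was thus present in ligand mRNAs that were lower and in CLCF1, whose ratio was above 1.

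The other ligands of the family were weak or not detected. Of the 7 genes listed, 3 passed the filter and 0 reached the threshold, where 6.36% of all tested genes did. CTF1, which encodes cardiotrophin 1, had 1.46 against 3.88 FPKM (2.66-fold lower, 1.89 to 3.80, log2 ratio -0.99). EBI3, a subunit of the heterodimeric cytokine interleukin 27, had 0.603 against 1.81 FPKM (3-fold lower, 1.64 to 5.79). CNTF, the ciliary neurotrophic factor gene, was higher at 2.72 against 1.17 FPKM, a ratio of 2.33 (1.61 to 3.41). However, 38.6% of its exon length is shared with annotated overlap, the largest being that of the readthrough gene ZFP91-CNTF. OSM, which encodes oncostatin M and lies 16.0 kb from LIF, had 3 against 7 reads. IL27 and IL31 had 0 reads in both libraries, which allows up to 3 reads in each.

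Of the 4 receptor genes 3 were lower and 1 was higher, none past the threshold. IL6ST, the shared signalling chain, was the most abundant receptor gene in the library labelled shTRIP13 and in the shcon library. IL6ST (ENSG00000134352, chromosome 5, 55935095 to 55994993, minus strand) stood at 22.6 and 26.4 FPKM, from 4074 and 4746 reads, a ratio of 0.858 (0.823 to 0.895) and a log2 ratio of -0.21. Of its exon length 8.58% is shared with an antisense gene that had 0 reads in both libraries. The sum of the 4 receptor genes was 42.1 against 58.1 FPKM, 1.38-fold lower in the library labelled shTRIP13.

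OSMR, the oncostatin M receptor chain, and LIFR, the LIF receptor chain, were both lower. OSMR (ENSG00000145623, chromosome 5, 38845858 to 38945596, plus strand) stood at 12.1 FPKM in the library labelled shTRIP13 and 23.2 in the shcon library, from 1677 and 3229 reads. It was 1.93-fold lower (1.81 to 2.04) with a log2 ratio of -0.89. LIFR (ENSG00000113594, chromosome 5, 38474963 to 38608354, minus strand) stood at 2.97 and 6.62 FPKM, from 684 and 1521 reads, and was 2.22-fold lower (2.03 to 2.44) with a log2 ratio of -0.94. Both stopped just short of the threshold on the scale with 1 FPKM added, and 4.77% and 5.26% of all tested genes lay below LIFR and OSMR. These genes lie 238 kb apart on chromosome 5. OSMR-AS1, a noncoding gene next to OSMR on the opposite strand, had 11 against 71 reads (6.45-fold lower, 3.40 to 13.5), and LIFR-AS1, which covers 5.30% of the LIFR exons, had 19 against 35. RICTOR, whose exons share 229 bases with OSMR, had 2.97 against 4.49 FPKM.

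IL6R, which encodes the interleukin 6 binding chain, was the weakest of the 10 genes in the shcon library and was higher in the other. IL6R (ENSG00000160712, chromosome 1, 154405193 to 154469450, plus strand) stood at 4.42 FPKM in the library labelled shTRIP13 and 1.88 in the shcon library, from 553 and 235 reads. This gave an FPKM ratio of 2.35 (2.02 to 2.75) and a log2 ratio of 0.91. As reported, the highest log2 ratio of the 10 was that of IL6R, with an interval overlapping that of CLCF1, and the lowest that of IL6. With a pseudocount of 5 the highest was CLCF1, at 0.73 against 0.45 for IL6R. The lowest was then LIF, at -2.56 against -2.33 for IL6. IL6ST was 5.12 times as abundant per length as IL6R in the library labelled shTRIP13 and 14.0 times in the shcon library. ADAM17 and ADAM10, proteases that shed IL6R from the cell surface, had 4.27 against 6.53 and 8.60 against 9.78 FPKM.

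Of the 4 other receptor chains of the family, 2 passed the filter and 1 was counted as lower, where 4.19% of all tested genes were. IL31RA, which pairs with OSMR to form the interleukin 31 receptor, had 6.38 FPKM in the library labelled shTRIP13 and 16.4 in the shcon library, from 566 and 1453 reads. It was 2.57-fold lower (2.33 to 2.83) with a log2 ratio of -1.24, and lies 12.2 kb from IL6ST, whose ratio was 0.858. Both chains of that receptor were thus lower, while its ligand gene IL31 had no reads. IL11RA, the interleukin 11 receptor chain, had 2.61 against 2.19 FPKM, a ratio of 1.19 (0.975 to 1.46) not distinguishable from 1 at this depth. IL27RA had 12 against 26 reads. CNTFR, the chain through which CLCF1 and CNTF act, had 1 read in the library labelled shTRIP13 and 0 in the shcon library.

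STAT3, the transcription factor downstream of these receptors, was close to level between the libraries. STAT3 (ENSG00000168610, chromosome 17, 42313324 to 42388568, minus strand) stood at 13.4 and 12.6 FPKM, from 2289 and 2151 reads, a ratio of 1.06 (1.003 to 1.13) and a log2 ratio of 0.08. No direction is read for it. With each library divided by its own total the ratio was 1.01 (0.951 to 1.07), and with the median ratio of tested genes set to 1 its log2 ratio turned to -0.05. These are mRNA levels and hold no information on phosphorylated STAT3.

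SOCS3, the feedback inhibitor that STAT3 induces, was somewhat lower in the library labelled shTRIP13. SOCS3 (ENSG00000184557, chromosome 17, 78356778 to 78360077, minus strand) stood at 25.2 against 33.3 FPKM, from 1333 and 1765 reads. It was 1.32-fold lower (1.23 to 1.42) with a log2 ratio of -0.39, and 16.0% of tested genes lay below it. Its difference was thus far smaller than those of LIF and IL6. By level, SOCS3 came directly after LIF among the 10 genes in both libraries.

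In order of level per length, the shcon library ran from LIF through SOCS3, IL6, IL6ST, OSMR, CLCF1, STAT3, IL11 and LIFR to IL6R. There the counting intervals of IL6 and IL6ST overlapped, as did those of IL11 and LIFR. The library labelled shTRIP13 ran from CLCF1 through LIF, SOCS3, IL6ST, STAT3, OSMR, IL6R, LIFR and IL11 to IL6, with overlapping intervals for IL11 and IL6 only. IL6 was thus among the highest of the 10 in the shcon library and the lowest in the other.

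**Figure D3:**
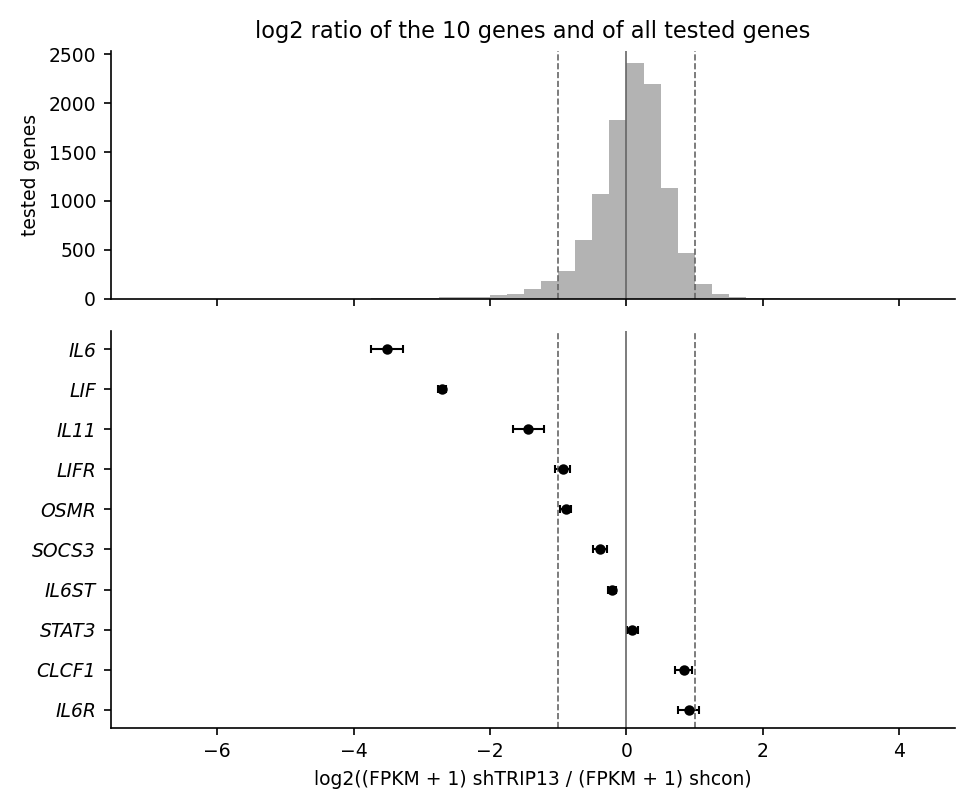
Top, number of the 10671 tested genes by log2 ratio of FPKM + 1, library labelled shTRIP13 over shcon library. Bottom, the 10 genes with bars for the 95% counting interval, and dashed lines at -1 and 1. IL6, LIF and IL11 lie beyond -1, LIFR and OSMR just inside it, and CLCF1 and IL6R just below 1.

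Other genes of the pathway were read from 10 lists with 95 genes in all, of which 67 passed the filter. By the threshold 10 of them were lower and 0 higher, and their median log2 ratio was -0.18. That is 10 of 67 where 4.19% of all tested genes were lower and 2.17% higher, and the lists were chosen with earlier results of these data known. Of 9 kinases and adaptors next to the receptors, 8 passed the filter and 0 reached the threshold either way, with a median of -0.11. GRB2, an adaptor, had the highest log2 ratio at 34.1 against 27.9 FPKM, and SOS1, a RAS exchange factor, the lowest at 5.36 against 8.02. JAK1, the main kinase of this receptor, had 33.5 against 31.0 FPKM, and JAK2 3.23 against 4.66, a ratio of 0.693 (0.607 to 0.790). JAK3, a kinase of lymphoid receptors and the 1 gene of the list below the filter, had 1 against 44 reads, a ratio of 0.0227 (0.000563 to 0.133). The other STAT genes likewise had 4 of 6 past the filter and 0 past the threshold, with STAT2 the lowest at 18.8 against 25.1 FPKM. STAT5A, 1.38 kb from STAT3, was below the filter with 53 against 154 reads.

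Among 16 other inhibitors of the pathway, 11 passed the filter, with a median of 0.01. The threshold was reached by 0 of them either way and by 6.36% of all tested genes. The lowest was SOCS5 at 3.45 against 5.81 FPKM, and PIAS3, an inhibitor of STAT3, had 9.01 against 13.5. The phosphatase PTPN2 was the highest at 3.97 against 3.44. Below the filter, SOCS1 had 20 against 42 reads and SOCS2 2 against 18, while CISH had 20 against 7, a ratio of 2.86 (1.16 to 7.997).

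Genes known to respond to STAT3 lay lower as a list. Of 21, 19 passed the filter, 5 were past the threshold downwards and 0 upwards, and the median was -0.61, beside 4.19%, 2.17% and 0.12 for all tested genes. CEBPD, a transcription factor of the acute phase response, had 3.41 against 19.8 FPKM, 5.81-fold lower (4.86 to 6.98). FOS, an immediate early factor, was 6.505-fold lower (5.32 to 8.02). The adhesion receptor ICAM1 was 4.06-fold lower (3.51 to 4.71). TIMP1, a metalloprotease inhibitor, had 202 against 602 FPKM. The fifth, IER3, had 73.4 against 177. At the other end, CCND1, cyclin D1, had 275 against 142 FPKM, a ratio of 1.94 (1.900 to 1.98), and BIRC5, survivin, 45.1 against 25.3. Most of these genes also respond to other pathways, among them NF-kB, MAP kinase and the cell cycle, so the list is not a measure of STAT3 alone.

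Acute phase genes, which interleukin 6 induces in liver, were nearly silent. Of 12, only SAA1 passed the filter, with 0 reads in the library labelled shTRIP13 and 144 in the shcon library. With a floor of 3 reads in place of the 0 it was 48-fold lower, and the lower end of its counting interval was 38.5-fold. SAA1 passed the filter through the shcon library alone, at 0 against 9.33 FPKM, and is among the 10 pathway genes counted as lower. CRP, A2M, FGB and ORM1 had 0 reads in both libraries.

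Genes known to switch on IL6 differed widely. IL1B, an inducer of IL6 through NF-kB, had 2.80 FPKM in the library labelled shTRIP13 and 394 in the shcon library, and IL1A 1.21 and 4.93, 4.06-fold lower (2.97 to 5.65). These were the 2 of 7 tested list genes past the threshold, where 4.19% of all tested genes were lower, and the list median was -0.16. Their receptor IL1R1 was the highest of the list at 8.46 against 5.57 FPKM, a ratio of 1.52 (1.38 to 1.66). The NF-kB subunit genes RELA and NFKB1 had 21.0 against 18.4 and 9.22 against 13.7 FPKM. Of the 10 genes for proteins that bind IL6-type mRNAs, all passed the filter, with a median of 0.04. Of them 1 was counted as lower, where 4.19% of all tested genes were. That gene was ZC3H12A, which encodes the endonuclease Regnase-1 that degrades IL6 mRNA, at 14.2 against 40.2 FPKM (2.84-fold lower, 2.62 to 3.07). HNRNPD, the AU-rich element binding protein AUF1, was the highest at 58.9 against 43.1. In direction, 4 of the 10 lay below 0 and 6 above, while 39.6% of all tested genes lay below 0. The 4 were ZC3H12A, ZFP36 at 10.2 against 13.8 FPKM, ZFP36L1 at 85.7 against 137 and ZFP36L2 at 12.1 against 16.4.

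**Figure D4:**
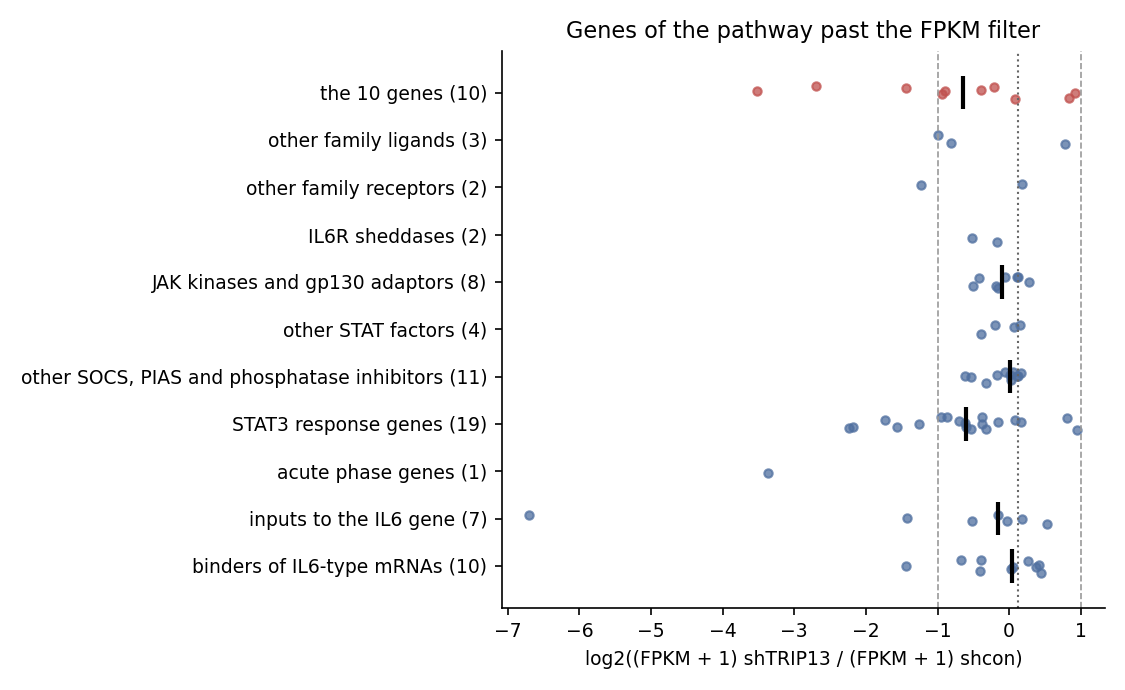
log2 ratio of FPKM + 1, library labelled shTRIP13 over shcon library, for each gene past the filter in the 10 genes (red) and 10 lists of other pathway genes (blue), with the number of genes in brackets. Black bars are medians of lists with 5 or more genes, the dotted line is the median of all tested genes at 0.12, and dashed lines mark -1 and 1; kinases, STAT genes and inhibitors lie inside the dashed lines.

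Markers of other cell types were examined because interleukin 6 and its relatives are also made by macrophages, endothelial cells and fibroblasts. Both libraries were labelled as U87MG, an established line, and the labels name no other cell type. RNA of a whole culture does not show which cells made a transcript. Of 10 macrophage and microglia markers, 2 passed the filter, and AIF1, CX3CR1, P2RY12 and TYROBP had 0 reads in both libraries. Their summed level was 4.499 FPKM in the library labelled shTRIP13 and 8.998 in the shcon library, nearly all from CSF1R (3.31 against 3.75) and TMEM119 (0.696 against 4.40). The 6 endothelial markers summed to 2.99 and 5.33 FPKM, with 1 past the filter. That marker was KDR, at 2.85 against 4.52 FPKM, which gave most of the sum. The others had few reads: PECAM1 1 against 45, VWF 6 against 75, CDH5 0 against 6, ERG 14 against 11 and CLDN5 1 in both. The 7 fibroblast and pericyte markers summed to 31.9 and 52.2 FPKM, with 3 past the filter. Of these 3, PDGFRB (1.74 against 12.4 FPKM) and LUM (2.08 against 7.55) were at least 2-fold lower, where 4.19% of all tested genes were. COL1A1 made up most of that sum in both libraries and was nearly level, at 27.4 against 29.4 FPKM, a ratio of 0.930 (0.896 to 0.966). Below the filter, DCN had 33 against 386 reads, THY1 3 against 76, COL3A1 6 against 17 and RGS5 62 against 73. The 3 marker sums were lower in the library labelled shTRIP13, as were LIF, IL6 and IL11, and their part in these results was not tested. Of 11 astrocyte and glioma markers, 6 passed the filter, and their median log2 ratio was -0.84. All 6 lay below 0, where 39.6% of all tested genes did. Past the threshold were 2 of the 6, where 4.19% of all tested genes were lower. The 2 markers were ALDOC at 6.38 against 22.5 FPKM and OLIG2 at 0.339 against 2.72. OLIG2 passed the filter through the shcon library alone, as did TMEM119 among the macrophage and microglia markers. NES had 2.21 against 5.23 FPKM, GJA1 62.3 against 103 and VIM, the highest log2 ratio of the list, 427 against 442. Their part in the results was not tested either. The markers of this list below the filter were GFAP, SOX2, PROM1, S100B and AQP4. GFAP had 0.119 against 0.392 FPKM, SOX2 1 against 2 reads, PROM1 1 against 5, S100B 4 against 0, and AQP4 0 in both.

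**Figure D5:**
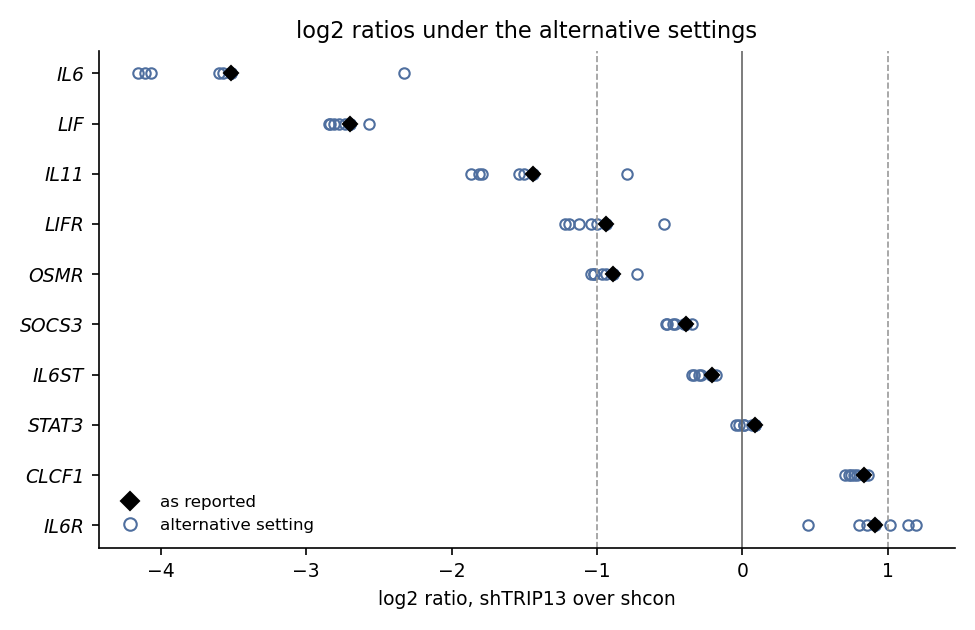
log2 ratio of each of the 10 genes as reported (black diamonds) and under up to 9 alternative settings (open circles), library labelled shTRIP13 over shcon library, with dashed lines at -1 and 1. IL6 and LIF lie beyond -1 in every setting, while IL11, LIFR, OSMR and IL6R cross a dashed line in at least 1 setting and STAT3 crosses 0.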

How the data were processed

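RNA sequencing libraries (NEBNext Ultra kit, total RNA, per the labels' protocols) were made from U87MG cells, 1 library per group. The authors deposited FPKM values for 58735 genes. Per the submitters' processing notes, the build was hg38 and the tools were edgeR, featureCounts 1.5.0-p3 and HISAT2 2.0.5, without their roles or settings. How strand was treated, and which annotation was used, is not given in the sources used here, so reads of overlapping and antisense genes may not be told apart. Identifiers, positions and strands of all 58735 genes equalled GENCODE 29.

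FPKM times gene length gave whole multiples of 1 step, 51.6, within 0.001 of a read for 100% of values, which gave the reads of each gene. Ratios have exact 95% intervals (Clopper-Pearson) from how the reads split, and levels exact Poisson intervals. These, and the floor of 3 reads, cover counting error only. The pseudocount was 1 and the filter a mean FPKM of 1, for protein-coding genes. The genes named are the 10 members, the other ligands and receptors, and in each other list the genes past the threshold and both ends, except a few that are not reported here. JAK1, JAK2, PIAS3, RELA, NFKB1, ZFP36, ZFP36L1, ZFP36L2 and genes below the filter were added for their roles after their values were seen. The members, lists and motifs were chosen with earlier results of these data known. No likeness between genes was computed, since 2 libraries give 1 ratio a gene. The calculations were tested on simulated data. Software was scipy 1.17.1, numpy 2.4.6, matplotlib 3.10.9 and pandas 2.3.3 in Python 3.11.15.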

Additional observations from a re-analysis of the deposited data

How the results depend on the processing

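No paired analysis was possible because there is 1 library a group. The 9 alternatives were a pseudocount of 0.1 or of 5, a filter at a mean FPKM of 5 or none, each library's own total, TPM, a median ratio of 1, reads at equal totals with 5 added, and genes of every biotype. The number of the 10 genes at least 2-fold lower was 5 in place of 3 under TPM, under the median ratio of 1 and with recovered reads, where LIFR and OSMR joined. It was 4 with a pseudocount of 0.1 and with own totals, where LIFR joined, and 2 with a pseudocount of 5 and with a mean FPKM of 5 or more, where IL11 missed the threshold or the filter. The number at least 2-fold higher was 1 in place of 0, IL6R, with a pseudocount of 0.1, under TPM and with recovered reads. The number of tested genes also changed with the setting. Of 10671 tested genes, 447 were lower as reported, 677 and 180 with pseudocounts of 0.1 and 5, and 773 with recovered reads. With a mean FPKM of 5 or more it was 280 of 6992, and with own totals 513 of 10673. TPM gave 956 of 12183, the median ratio of 1 gave 547 of 10618 and every biotype 737 of 13128. Those higher were 232 as reported, 408 and 64 with pseudocounts of 0.1 and 5, and 138 with the median ratio of 1. Of genes past the threshold, 34.2% were higher as reported, 22.5% under TPM and 20.1% with the median ratio of 1, which shifted the median of all tested genes by -0.12. Over the alternatives IL6 ranged from -4.16 to -2.33, LIF from -2.84 to -2.56, IL11 from -1.87 to -0.80, CLCF1 from 0.70 to 0.87 and IL6R from 0.45 to 1.19. STAT3 alone of the 10 turned direction. Of the list medians, those of the kinases and adaptors, the other inhibitors and the mRNA binders also turned. The cause was not tested.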

Other observations

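Across all tested genes, medians differed little by promoter motif. The 686 genes with the NF-kB motif in a RefSeq window had a median log2 ratio of 0.08 and 4.81% of them were at least 2-fold lower, against 0.13 and 3.83% of the 7824 without it. For the AP-1 motif, the median was 0.03 with 6.62% lower among 529 genes, against 0.13 and 3.73% among 7981. The C/EBP motif gave 0.07 and 5.68% against 0.13 and 3.74%, and the STAT motif 0.10 and 5.397% against 0.13 and 3.79%.

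By AU-rich heptamers in the 3′ UTR, the 7036 tested genes with none had a median log2 ratio of 0.15, with 3.67% of them past the threshold downwards and 2.32% upwards. The 2883 genes with 1 or 2 had 0.08, 4.79% and 2.15%. The 649 genes with 3 or more, to which the 4 ligands and OSMR belong, had 0.01, with 43 genes (6.63%) lower and 5 (0.770%) higher. These are descriptions of 2 libraries with no test, and 3′ UTR length was not matched between these sets of genes.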
